A study of Bos taurus with 12 samples.

Results

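The SLC25 genes encode the mitochondrial carriers, and their mRNA was followed here in the mammary gland (MG) of Holstein cows before and during feed restriction. Members were all genes whose symbol starts with SLC25A, with UCP2 and UCP3 added and SLC25A20 and SLC25A1 left out. By this rule the reference gene table held 46 genes, of which 38 had at least 1 probe on the array, among 12787 genes with a probe in all. Signals of 23 members could be tested, and the other 15 were too dim. Total RNA from MG biopsies of 6 multiparous midlactation Holstein cows was hybridized to 12 one-colour bovine oligonucleotide arrays, 1 array per biopsy. In the CONT period (day 0) the cows ate a lactation diet ad libitum, and in the REST period (day 6) the allowance of the same cows covered 50% of their net energy requirements for lactation. Both biopsies of a cow came from the living animal, without genetic modification or drug treatment described, and CONT always preceded REST, so that feed restriction cannot be told apart from 6 more days of lactation or from an earlier biopsy. The labels name 6 cows, whereas the series description counts 5 and the methods exclude 1 Holstein cow for mastitis without naming it. Results are therefore also given with single cows omitted.

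Mitochondrial carriers are small proteins of the inner mitochondrial membrane that are built from repeated pairs of membrane-spanning helices. Each exchanges or imports a narrow set of solutes, such as ADP for ATP, phosphate, malate, amino acids or cofactors, and together they link the respiratory chain and the tricarboxylic acid cycle to the cytosol. The secretory epithelium of the lactating gland is rich in mitochondria, and its synthesis of milk fat, protein and lactose draws on ATP and on metabolites that pass through these carriers.

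The 4 arrays of a slide held both periods of 2 cows, and each slide was scanned within 1 day. Slide 3, with cows 5 and 6, was dim: the 75th percentile of its processed intensities was 73.2 to 117 units, against 252 to 390.0 on slides 1 and 2, and 41.9 to 48.0% of spots were well above background against 61.8 to 67.9%. Within each cow the REST array had the higher 75th percentile (6 of 6 cows), and this difference was removed by the scaling. All normalized signals below are log2 units relative to the 75th percentile of the array, and changes are REST minus CONT within cow. Milk protein markers were abundant on all arrays. Their summed signal (5 of 6 markers tested), as a multiple of the 75th percentile, was 3899.9 to 5022 in CONT and 3217 to 4121 in REST and was lower in REST in 6 of 6 cows. Luminal epithelial markers (7 of 8 tested) summed to 234 to 326 in CONT and 256 to 338 in REST, and endothelial markers (6 of 6 tested) to 14.2 to 23.5 and 23.0 to 31.1, higher in REST in 6 of 6 cows. Leukocyte markers (7 of 9 tested) summed to 16.3 to 20.2 and 15.7 to 19.3, higher in REST in 1 of 6 cows. Among these and the other cell type markers, KRT8, KRT18, CLDN5, VWF, CD3E and CD8A were called higher in REST and CSN1S1, CSN3, FABP4, CNN1, ACTA2 and CKM lower. Of these, CD8A missed the well-above-background limit on 1 CONT array and passed the filter through REST alone. Without the cow as a block only CLDN5 and VWF stayed called. Myoepithelial markers (6 of 7 tested) summed to 96.2 to 189 in CONT and 87.1 to 174 in REST, higher in REST in 1 of 6 cows, and KRT5 (0.25), OXTR (0.17) and MYH11 (0.10) were not called. Of the luminal and leukocyte markers, CLDN4 (-0.17), ELF5 (-0.05), CD4 (-0.22), PTPRC (-0.15) and CD14 (-0.09) were below 0 and not called. None of the 6 fibroblast markers was called, with a median of -0.36 and values from -0.54 (COL1A1) to 0.32 (DCN), and their sum was 34.2 to 63.9 in CONT and 26.4 to 73.5 in REST. The fat cell markers ADIPOQ, PLIN1, LEP and CIDEC had no tested probe.

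Of the 23 tested members, 3 were lower in REST at an adjusted p under 0.1 and none was higher (limma, cow as a block, Benjamini-Hochberg over all tested probes). They were SLC25A5, an ADP/ATP carrier of the inner membrane, SLC25A39, a glutathione carrier, and SLC25A4, another ADP/ATP carrier. The share, 13%, stood beside 16.2% of all 7930 tested genes called in either direction (9.27% lower, 6.94% higher), so the family as a whole was not set apart by its number of calls. The median change of the 23 members was -0.11, with 15 of them (65.2%) below 0, against a median of -0.01 and 51.6% below 0 over all tested genes. In the 6 cows the family median ranged from -0.14 to -0.06, and on the 3 slides it was -0.08, -0.12 and -0.13. Changes of single members ran from -0.54 (SLC25A5) to 0.31 (SLC25A21). Over the 21 members well above background on all arrays the median was also -0.11. Without cow 2 the median of the 23 members was -0.06. Without the cow as a block only SLC25A5 was called, lower in REST (4.4% of all genes were called, 2.81% lower and 1.59% higher). In whole tissue, fewer cells of a type and less RNA per cell cannot be told apart, and the part of the marker differences given above in these changes was not tested.

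**Figure D1:**
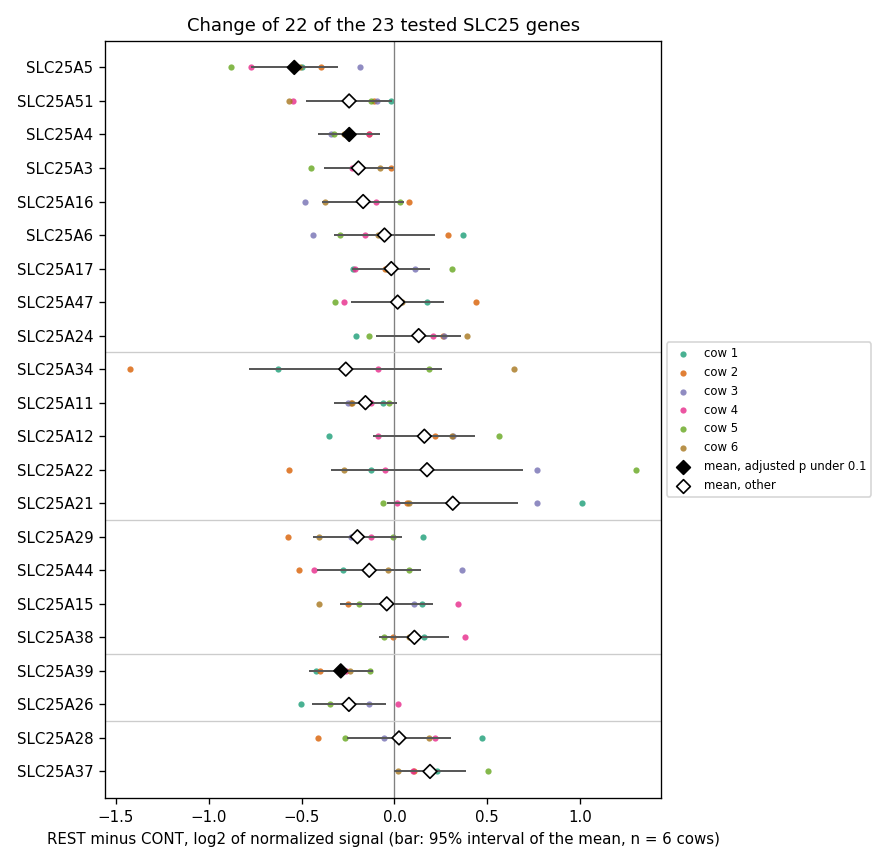
Change of 22 of the 23 tested SLC25 genes, REST minus CONT in log2 of the normalized signal, with 1 point per cow, a diamond for the mean and a bar for its 95% interval (n = 6 cows). Lines separate carriers of adenine nucleotides and phosphate, di- and tricarboxylates, amino acids, other nucleotides and cofactors, and iron; the 3 black diamonds, SLC25A5, SLC25A4 and SLC25A39, lie below 0.

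SLC25A5 (RefSeq NM_174659) had the largest absolute change of the tested members. Together with SLC25A4 and SLC25A6 it is one of the adenine nucleotide carriers, which export newly made ATP from the matrix in exchange for ADP. Its normalized signal in the 6 CONT arrays had a lowest value of 3.53, a median of 3.66 and a highest value of 3.99, and in the 6 REST arrays 2.85, 3.17 and 3.42. Every REST array lay below every CONT array, a separation seen downwards in 1.66% of all tested genes and upwards in 0.605%. The change was -0.54 (SE 0.10, n = 6 cows), so that the signal fell by 31.2%, with a limma adjusted p of 0.0225 with the cow as a block and 0.03362 without it. Cow 5 had the largest fall (-0.88) and cow 3 the smallest (-0.18). The slide means were -0.45, -0.48 and -0.69, so that the bright and the dim slides gave the same direction. All 3 of its probes were called lower, with changes of -0.54, -0.52 and -0.41. Leaving out 1 cow at a time gave limma adjusted p-values between 0.02605 (without cow 3) and 0.0772 (without cow 4).

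SLC25A4 (NM_174658), the ADP/ATP carrier that prevails in heart and skeletal muscle, had CONT signals with a lowest value of 5.03, a median of 5.18 and a highest value of 5.46, and REST signals of 4.75, 4.92 and 5.27. The groups overlapped, because cows 1 and 4 were high in both periods, while the change within cow was below 0 in 6 of 6 cows, from -0.34 to -0.14. The mean change was -0.24 (SE 0.07, n = 6 cows; limma adjusted p = 0.07713), and without the cow as a block the adjusted p was 0.3296. Of its 4 probes 2 were called lower, and the 4 changes lay between -0.26 and -0.16. A fit on the median of the 4 probes in each array gave -0.17, which was not called (limma adjusted p = 0.2211). This call did not hold when any single cow was left out, with limma adjusted p-values of 0.1216 to 0.1574, nor after normexp background correction (-0.11, adjusted p = 0.3189). Of the skeletal muscle markers, 2 of 7 were tested: CKM was called lower (-0.36, limma adjusted p = 0.07025) and ACTA1 changed by 0.02 (adjusted p = 0.8988). Their summed signal was 2.05 to 3.73 in CONT and 1.72 to 2.94 in REST, and its part in the SLC25A4 change was not tested.

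SLC25A6 (NM_174660), the third of these carriers, was not called. Its CONT signals were close together, with a lowest value of 7.44, a median of 7.52 and a highest value of 7.62, whereas the REST signals spread over 7.07, 7.33 and 7.91. The REST arrays of cows 1 and 2, both on slide 1, were above all CONT arrays and the other 4 REST arrays were below them. The mean change was -0.05 (SE 0.12, n = 6 cows; limma adjusted p = 0.804), with slide means of 0.33, -0.30 and -0.19. Its 4 probes changed by -0.05 to 0.06. The sign of its change depended on the processing, being 0.11 after normexp background correction and 0.024 without cow 3 and 0.016 without slide 3.

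The changes of the ADP/ATP carriers were compared with each other within cow, in 3 pairs. The change of SLC25A5 minus that of SLC25A6 was -0.49 ± 0.39 (SD, n = 6), below 0 in 5 of 6 cows (exact sign-flip test, two-sided, p = 0.0625, adjusted p = 0.09375). SLC25A4 exceeded SLC25A5 by 0.30 ± 0.28 (SD, n = 6), in 5 of 6 cows (exact p = 0.0625, adjusted p = 0.09375). For SLC25A4 against SLC25A6 the difference was -0.19 ± 0.28 (SD, n = 6; exact p = 0.1875). With 6 cows this exact test cannot give a p below 0.03125. The pairs with SLC25A5 were under an adjusted p of 0.1, but rose to 0.1875 in the exact test without cow 1, 2, 4, 5 or 6. With 1 cow fewer the smallest possible p is higher, so this rise cannot be assigned to particular cows. Transcripts of these genes are much alike, and cross-hybridization between their probes was not tested.

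**Figure D2:**
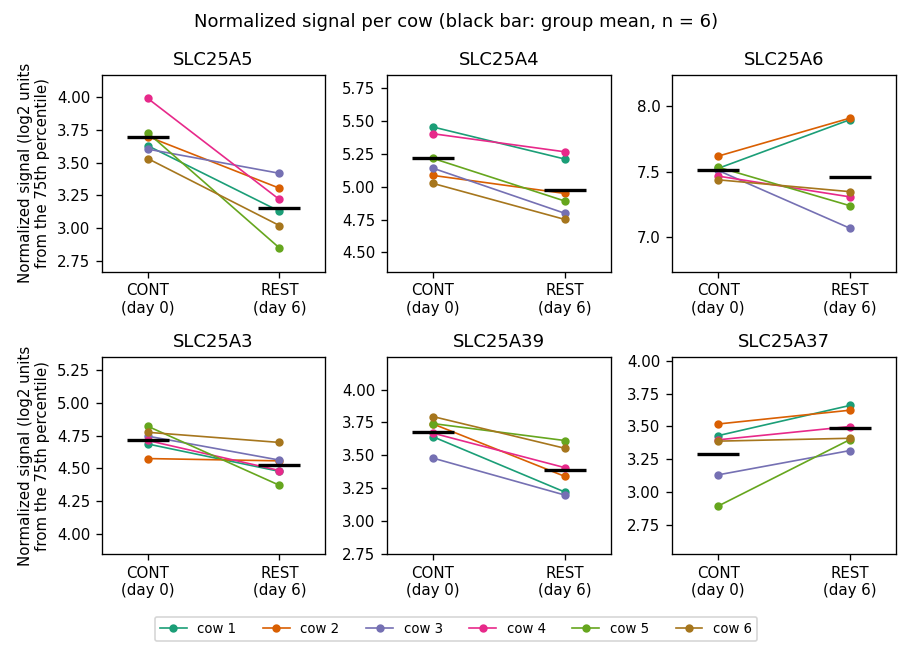
Normalized signal (log2 units from the 75th percentile of the array) of 6 carriers in CONT and REST, with 1 line per cow and a black bar for each group mean; every panel spans the same range. All lines fall for SLC25A5, SLC25A4, SLC25A3 and SLC25A39, cows 1 and 2 rise and the others fall for SLC25A6, and all lines rise for SLC25A37, of which only SLC25A5, SLC25A4 and SLC25A39 passed the test.

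SLC25A3 (NM_174657), the phosphate carrier, supplies the phosphate that ATP synthase joins to ADP. Its signal had a lowest value of 4.58, a median of 4.73 and a highest value of 4.82 in CONT and of 4.37, 4.52 and 4.70 in REST. It was below its CONT value in 6 of 6 cows, a pattern shared by 10.8% of all tested genes, but the groups overlapped and the change was as small as -0.02 in cow 2. The mean change of -0.19 (SE 0.08, n = 6 cows) was not called (limma adjusted p = 0.1682), and its 3 probes gave -0.19 to -0.12. After normexp background correction it was -0.035 (adjusted p = 0.8187), and with the cow as a random block it was called (0.09015). SLC25A51, which imports NAD+ into the matrix, was below CONT in 6 of 6 cows as well, with a mean of -0.24 that was not called (limma adjusted p = 0.1621). Its 3 probes changed by -0.27, -0.26 and -0.24, a narrow range, and none of them was called. Among the 9 tested carriers of adenine nucleotides, phosphate and related molecules, 2 were called lower (22.2%, against 9.27% of all tested genes) and the median change was -0.17. The rest of the group held SLC25A16 (-0.17), the peroxisomal carrier SLC25A17 (-0.02), SLC25A47 (0.02) and the ATP-Mg/phosphate carrier SLC25A24 (0.13), none of them called.

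SLC25A39 (NM_001075415) brings glutathione, the main thiol antioxidant, into the mitochondrial matrix. Its signal had a lowest value of 3.48, a median of 3.70 and a highest value of 3.79 in CONT, and of 3.20, 3.37 and 3.61 in REST. REST was below CONT within 6 of 6 cows, and the groups overlapped between cow 3 in CONT and cows 5 and 6 in REST. The change was -0.29 (SE 0.08, n = 6 cows), so that the signal fell by 18.2%, with limma adjusted p-values of 0.05227 with the cow as a block and 0.1658 without it. Slide means were -0.41, -0.27 and -0.19. Only 2 of its 5 probes were called, both lower, and the 5 changes ranged from -0.29 to -0.11. In a fit on the median of its probes in each array the change was -0.14 and not called (limma adjusted p = 0.2316). The call was lost without cow 1, 2, 3 or 4 (limma adjusted p 0.1292, 0.1526, 0.1011 and 0.1262), and was kept without cow 5 or 6. After normexp background correction the change was -0.16 and not called (adjusted p = 0.2128). SLC25A26, which carries S-adenosylmethionine, changed by -0.25 (limma adjusted p = 0.1151), while its other tested probe gave 0.26. That probe was above the detection limit on 4 of 6 CONT and 6 of 6 REST arrays and so was tested through REST alone.

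None of the 5 tested carriers of dicarboxylates, tricarboxylates, glutamate and aspartate was called. SLC25A11, the oxoglutarate carrier, exchanges malate for oxoglutarate in the malate-aspartate shuttle. It was below CONT in 6 of 6 cows, with a mean of -0.16 (limma adjusted p = 0.2107). SLC25A12, the calcium-regulated aspartate-glutamate carrier of the same shuttle, gave 0.16 (adjusted p = 0.4204), and 0.26 without cow 1. On 4 of 6 CONT and 6 of 6 REST arrays SLC25A12 was well above background, so that it was tested through REST alone. SLC25A21, the oxodicarboxylate carrier, had the highest mean change of the 23 tested members, 0.31 (limma adjusted p = 0.2273). Its cows were far apart, since cows 1 and 3 gave 1.01 and 0.77 and the remaining 4 cows lay between -0.06 and 0.08. The glutamate carrier SLC25A22 gave 0.18 and SLC25A34 gave -0.26, with changes of single cows from -0.57 to 1.30 and from -1.42 to 0.64. SLC25A34 was above the detection limit on 5 of 6 CONT and 6 of 6 REST arrays. Each mean rested on 1 cow, being -0.050 for SLC25A22 without cow 5 and -0.030 for SLC25A34 without cow 2.

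None of the 4 tested amino acid carriers was called. SLC25A29, a carrier of basic amino acids, changed by -0.20 and SLC25A44, which imports branched-chain amino acids, by -0.14. For the ornithine carrier SLC25A15 the change was -0.04, and for SLC25A38, which serves glycine import for heme synthesis, it was 0.11. Limma adjusted p-values of these 4 genes were between 0.2592 and 0.8385. Without the 1 cow farthest from the others, the changes were -0.13 (SLC25A29, without cow 2), -0.24 (SLC25A44, without cow 3), -0.12 (SLC25A15, without cow 4) and 0.053 (SLC25A38, without cow 4).

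SLC25A37 (mitoferrin-1, NM_001102555) and SLC25A28 (mitoferrin-2) import iron for heme and iron-sulfur clusters, and neither was called. SLC25A37 was the only tested member above its CONT value in 6 of 6 cows (7.49% of all tested genes were). Its signal had a lowest value of 2.89, a median of 3.39 and a highest value of 3.52 in CONT and of 3.32, 3.45 and 3.66 in REST, so that the groups overlapped widely. The change was 0.19 (SE 0.09, n = 6 cows; limma adjusted p = 0.1895), with 0.51 in cow 5 and 0.02 in cow 6. A dimmer probe of SLC25A37, named after its values were seen, was called higher, with 0.33 (SE 0.11; limma adjusted p = 0.0981), but 1 of the 6 CONT arrays did not measure it well above background, so that it was tested through its REST arrays alone. After normexp background correction the brighter probe was called higher too (0.31, limma adjusted p = 0.04764). SLC25A28 gave 0.02 (adjusted p = 0.9183), and -0.18 at its other probe, which passed the filter through REST alone. Of the red cell markers only HBA was tested, with -0.33 (adjusted p = 0.1076).

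At the level of probes, 8 of the 45 tested probes of the family (17.8%) were called, against 16% of all 19403 tested probes. They belonged to 4 genes: SLC25A5, SLC25A4, SLC25A39 and SLC25A37, the last by the dimmer probe that had passed the filter through REST alone. Of the 12 members with several tested probes, 9 had all changes on one side of 0, and SLC25A6, SLC25A26 and SLC25A28 had changes on both sides, SLC25A26 and SLC25A28 by probes tested through REST alone.

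**Figure D3:**
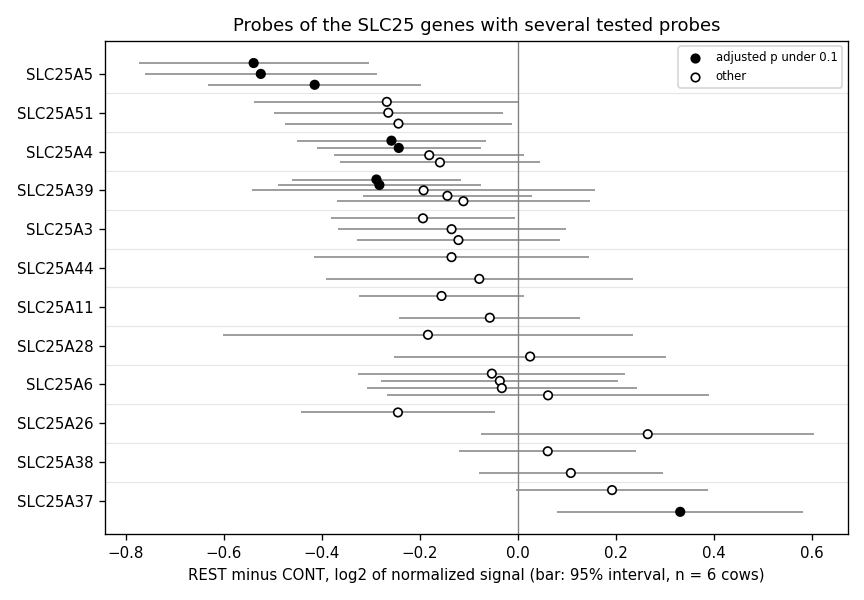
Change (REST minus CONT, log2 of the normalized signal) of each tested probe of the 12 SLC25 genes with several tested probes, with its 95% interval (n = 6 cows); black points were called. The 3 SLC25A5 probes lie together between -0.54 and -0.41, and the 2 SLC25A26 probes lie on opposite sides of 0, the higher one tested through its REST arrays alone.

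A further 15 members could not be tested, because no probe of theirs was well above background on every array of a group. They were SLC25A2, SLC25A14, SLC25A25, SLC25A27, SLC25A30, SLC25A31, SLC25A35, SLC25A40, SLC25A41, SLC25A42, SLC25A45, SLC25A48, SLC25A53, UCP2 and UCP3. UCP3, the uncoupling protein of muscle and brown fat, was not well above background on any array at either of its 2 probes. UCP2, the widely expressed uncoupling protein, was not well above background on any of the 6 CONT arrays. Its brighter probe passed this limit on 4 of 6 REST arrays, those of cows 1 to 4 on the 2 bright slides, and its other probe on 2 REST arrays, those of cows 2 and 3. Measured means of the brighter probe were -5.08 ± 0.60 in CONT and -4.05 ± 0.49 in REST (SD, n = 6), and over 6 cows these allowed no bound on the fold.

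With slide 3 left out, a setting chosen after the data were seen, 29 members passed the filter and 4 were called, SLC25A5, UCP2, SLC25A35 and SLC25A45. Of all tested probes 10.5% were called, and the share over all genes was not computed for this setting. UCP2 entered this fit through its 4 REST arrays alone, since 0 of the 4 CONT arrays measured it well above background, and its call is therefore given no weight. The measured means of UCP2 in these 4 cows were -5.41 in CONT and -3.75 in REST. No fold is given, because the CONT signals were not well above background. SLC25A35, a carrier without an agreed substrate, was lower by 1.11 log2 units in REST (-1.11, SE 0.14, n = 4 cows; limma adjusted p = 0.03121), and SLC25A45 by 0.47 (-0.47, SE 0.11, n = 4 cows; adjusted p = 0.07444). Both were lower in 4 of 4 cows. Over all 6 cows and without a filter on dim probes, SLC25A35 gave -0.88 (limma adjusted p = 0.1516) and SLC25A45 -0.37 (adjusted p = 0.2372). REST arrays were the brighter ones in every cow before scaling, and the part of this difference in the detection of UCP2 was not tested.

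The carriers work with enzymes, pores and import proteins, of which 44 were listed and 38 tested. Of these, 7 were called lower and 1 higher, 21.1% against 16.2% of all genes, and the median change of the 38 was -0.10. After normexp background correction 5 were called lower and 3 higher. In the malate-aspartate shuttle, which moves reducing equivalents from the cytosol into the matrix through SLC25A11 and SLC25A12, 3 of 4 enzymes were called lower (75%, against 9.27% of all tested genes). GOT2, the mitochondrial aspartate aminotransferase, had CONT signals with a lowest value of 3.60, a median of 3.64 and a highest value of 3.71 and REST signals of 3.08, 3.11 and 3.21. These groups did not overlap, and the spread within each was small. Its change was -0.51 (SE 0.07, n = 6 cows; limma adjusted p = 0.007973), between -0.58 and -0.41 in single cows. The mitochondrial malate dehydrogenase MDH2 changed by -0.42 (SE 0.09; limma adjusted p = 0.03297) and the cytosolic MDH1 by -0.41 (SE 0.10; adjusted p = 0.04071), again without overlap of the groups (1.66% of all tested genes). GOT1, the cytosolic aminotransferase, gave -0.28 and was not called (adjusted p = 0.1825). Without cow 4, which gave -0.84, the GOT1 change was -0.17. The call of MDH1 was lost without cow 4 (limma adjusted p = 0.1043) and after normexp background correction (-0.26, adjusted p = 0.1118), and those of GOT2 and MDH2 were kept whichever cow was left out.

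Pyruvate enters the matrix through a carrier outside the SLC25 family that is made of MPC1 and MPC2. MPC2 had CONT signals with a lowest value of 4.91, a median of 5.19 and a highest value of 5.57 and REST signals of 4.34, 4.55 and 4.85, with no overlap. It changed by -0.62 (SE 0.11, n = 6 cows; limma adjusted p = 0.01929). MPC1 gave -0.08 (SE 0.08; adjusted p = 0.5633), with REST below CONT in 4 of 6 cows. The difference in change between both subunits was not tested.

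Of 14 proteins that import and insert carrier precursors, 2 were called lower (14.3%, against 9.27% of all tested genes): TIMM8B, a small chaperone of the intermembrane space, with -0.41 (SE 0.11; limma adjusted p = 0.04984), and TOMM7, a small subunit of the outer membrane translocase, with -0.39 (SE 0.09; adjusted p = 0.03433). The call of TIMM8B was lost without cow 1, 2 or 4 (limma adjusted p 0.101, 0.1467 and 0.1345) and that of TOMM7 without cow 2 or 4 (0.1058 and 0.1004). After normexp both lost it, with -0.28 (adjusted p = 0.1284) for TIMM8B and -0.23 (0.13) for TOMM7. TOMM20 (0.15) and TOMM22 (0.22) of the same list were higher in 6 of 6 cows. Neither was called in the main fit (limma adjusted p 0.2277 and 0.1296), but both were called higher after normexp. TOMM22 was also called with quantile normalization, with the cow as a random block and by eBayes with trend and robust. None of the 5 outer membrane pores and carrier relatives was called, VDAC1, VDAC2 and VDAC3 included, with changes from -0.17 to 0.05 and 0 calls without the cow block as well. Of 9 other inner membrane transporters 1 was called lower (11.1%, near the 9.27% of all tested genes), MCU, the pore of the calcium uniporter (-0.30, SE 0.08; limma adjusted p = 0.05663), a call lost without cow 1, 2 or 4 (0.136, 0.1642 and 0.1366). Of 7 listed regulators of mitochondrial biogenesis 4 were tested, and 1 of these was called higher (25%, against 6.94% of all tested genes). This was ESRRA, an orphan nuclear receptor, with 0.42 (SE 0.11, limma adjusted p = 0.0497). The call of ESRRA was lost without cow 1, 2 or 4 (0.112, 0.1339 and 0.1339). Without the cow as a block the calls of TIMM8B (0.1771), MCU (0.4405) and ESRRA (0.2574) ended. The other 3 tested regulators had means below 0 and were not called. TFB2M gave -0.23, TFAM -0.14 and PPARGC1A, a coactivator of mitochondrial genes named after its values were seen, -0.85 (SE 0.30, limma adjusted p = 0.1075). PPARGC1A had the largest mean change of the 38 partner genes in size, with slide means of -1.80, -0.79 and 0.02, and was called lower in 7 of 22 alternatives. TFB2M was -0.12 without cow 1. TFAM had a limma adjusted p of 0.6359 over all 6 cows. It was -0.34 and called only after cow 5, the 1 cow in which it rose (0.86), was left out.

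**Figure D4:**
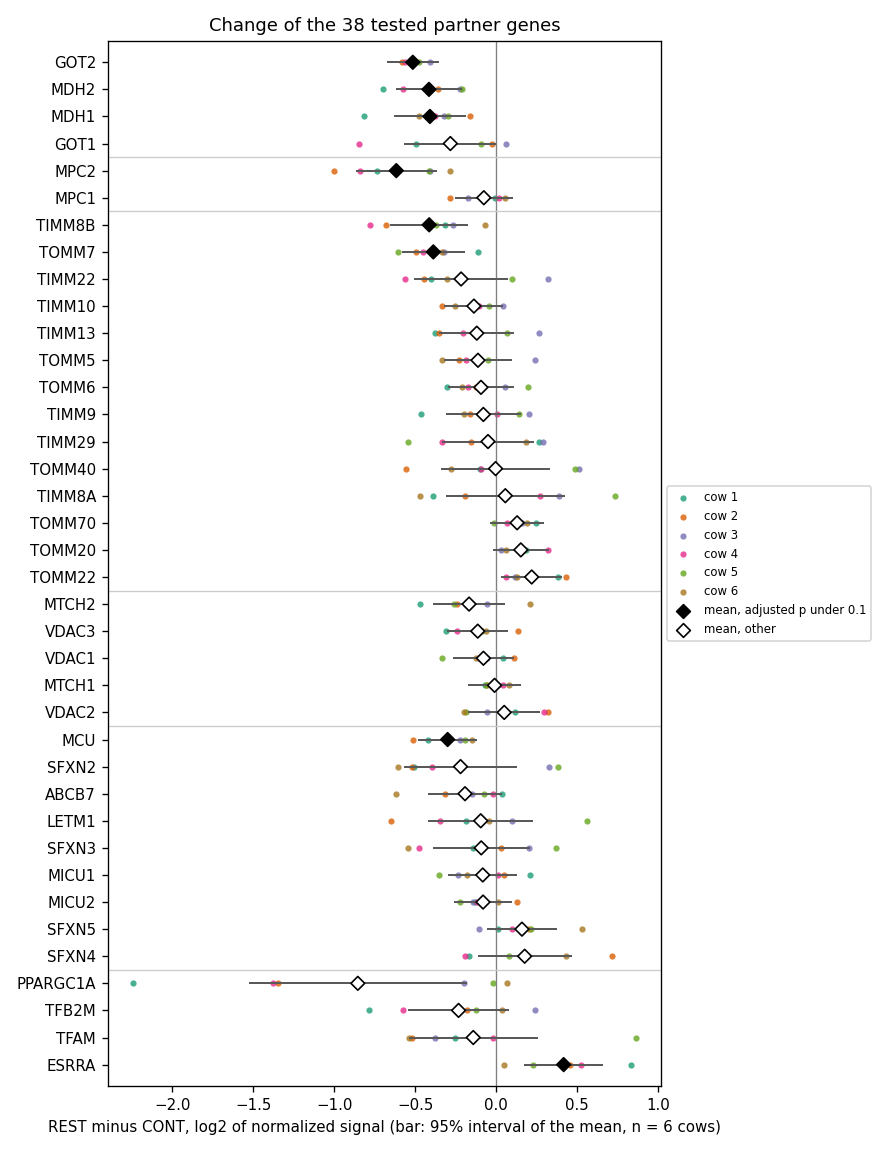
Change of the 38 tested partner genes, REST minus CONT in log2 of the normalized signal, with 1 point per cow, a diamond for the mean and a bar for its 95% interval (n = 6 cows). Lines separate malate-aspartate enzymes, the pyruvate carrier, import proteins, outer membrane pores, other inner membrane transporters and biogenesis regulators; black diamonds were called, 7 below 0 and 1, ESRRA, above.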

How the data were processed

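MG RNA was measured on 12 one-colour arrays. Per the file headers and the labels, the authors extracted spot intensities with Agilent Feature Extraction (version 11 in the submitters' processing notes), and the deposited files hold background-subtracted, detrended intensity values on a linear scale without scaling between arrays. Here control and marked spots (1 to 13 per array) were left out, intensities were log2-transformed, the 75th percentile of each array was subtracted and repeat spots were averaged. Symbols were attached to 62.2% of 43653 probes through RefSeq identifiers. A probe entered the test if all 6 arrays of CONT, or all 6 of REST, measured it well above background.

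The change from CONT to REST was fitted in limma 3.58.1 (R 4.3.3) with the cow as a block and Benjamini-Hochberg adjustment over 19403 probes, threshold 0.1. The methods of the study name a 75th percentile shift and t-tests without stating pairing, so the fit without the block was also run. Deviations from the group means correlated between the arrays of a cow (r from 0.36 to 0.57) and less between cows (r from -0.33 to 0.13), and the labels give the same animal. A gene was represented by its tested probe of highest mean signal. Values per array were given for called members and for the ADP/ATP and phosphate carriers, and at most 3 called genes per partner list were named, besides MPC1 and MPC2. SLC25A37, GOT1, PPARGC1A, TFB2M, TFAM, TOMM20 and TOMM22 were added after their values were seen. The values of 1 tested member are not reported here, although the counts and medians include it. Members, lists and this rule were chosen with earlier results of these data known. The code was tested on simulated data. Python 3.11.15, pandas 2.3.3 and matplotlib 3.10.9 read files and drew plots.

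Alternatives were median shift, quantile normalization, normexp on median signals (offset 50), the deposited series table (equal to the scanner files in all 45220 cells per array), no filter, a filter over all arrays, marked spots kept, other block designs, eBayes with trend and robust, t-tests, a threshold of 0.05, the median of probes, each cow left out and slide 3 left out. The number of arrays limits the precision. Genome positions and sequences were not used here.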

Additional observations from a re-analysis of the deposited data

Results flagged for a closer look

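Among the 46 sets of 6 arrays (23 tested members in CONT and in REST), 2 held an array whose gap to its nearest neighbour was large for the range of the set by Dixon's criterion, and chance gives about 1 in 20 sets, here 2.3. For the peroxisomal carrier SLC25A17, the CONT array of cow 4 was the highest at 1.48, with the other 5 between 0.75 and 0.93. For the glutamate carrier SLC25A22, the CONT array of cow 5 was the lowest at 0.17, with the others between 1.26 and 1.90, and the change of 1.30 in that cow was the highest of the 23 tested members in any cow.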

How the results depend on the processing

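SLC25A5 kept its call in 21 of 22 alternatives, with changes from -0.61 to -0.42, and lost it without a filter on dim probes (adjusted p = 0.114). SLC25A39 lost its call in 11 and SLC25A4 in 15 of the 22. Against 3 members called, 1 was called at a threshold of 0.05, by the median of probes, without the replicate block and by the methods' t-test (unpaired). With the cow as a random block 6 were called (SLC25A3, SLC25A26 and SLC25A51 added, with 18.3% of all probes called). Without the filter 0 of 38 were called in limma, beside 0.889% of all probes. With 1 cow left out 1 to 3 were called, with 1 in the absence of cow 1, 2, 3 or 4. Normexp gave 2, SLC25A5 and, higher, SLC25A37, and quantile normalization 2, SLC25A5 and SLC25A39. The partner genes called numbered 1 without the filter, 5 without the block and by the methods' t-test, and 3 to 10 with 1 cow left out (5, 4 and 3 without cows 1, 2 and 4). The family median was -0.15 without the filter, -0.063 after normexp, -0.16 without slide 3 and -0.14 to -0.060 with 1 cow left out. All tested probes gave 3104 calls (1401 higher, 1703 lower), 1532 at 0.05, 388 without the filter, 836 without the replicate block (cows unpaired), 1898 with the slide as a block, 1852 by the paired t-test without moderation, 722 by the methods' t-test and 1045 to 3252 with 1 cow left out, and normexp gave 1985 higher and 1692 lower. Among the genes followed through all alternatives (the called ones, SLC25A3, SLC25A6 and MPC1), the sign turned for SLC25A6 (0.11 after normexp, 0.024 without cow 3, 0.016 without slide 3) and for MPC1 (0.055 after normexp), neither called. The causes were not tested. Dim signals on slide 3 limit which members could be tested.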
